A study of Homo sapiens with 8 samples.

Results

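The regions described are the accessible regions of chromosome 8 outside 3 windows that were left out: a MYC window of 5 Mb that ends at 130 Mb, the LY6K window at 142.5 to 143.5 Mb and the PI15 window at 74.5 to 75.5 Mb (hg38). They were measured by ATAC-seq, in which a transposase cuts open chromatin, and each region is a peak about 1 kb wide. Of 159451 peaks in the data, 7161 lay on chromosome 8, and 6477 of these (4.06% of all peaks) had their midpoint outside the windows and are called member peaks here. The short arm, 8p, held 2088 of them and the long arm, 8q, held 4256. Another 133 lay between the arms, in the longest stretch without a RefSeq gene (8:43540928-46549088).

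The cells were A2780, an established human ovarian cancer line, with 2 libraries in each of 4 groups. The control group has no drug under treatment in its labels. The line labelled CpR is listed with cisplatin, which binds and crosslinks DNA, and TxR with paclitaxel, which stabilises microtubules. The line labelled TxCpR is listed with both. They are called the cisplatin-resistant, paclitaxel-resistant and dual-resistant lines below. Every group has the genotype WT. The labels do not say how the lines were derived, how many clones each holds or whether replicate libraries came from separate cultures, so p-values measure the spread between these libraries. That spread was estimated mostly over peaks of like level, and little from the libraries at a single peak.

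As background, the signal of an ATAC-seq peak rises with how open its chromatin is and with how many copies of that DNA a cell holds. A stretch of a chromosome present in extra copies raises all of its peaks, and a change at a gene or enhancer raises or lowers a few. In carcinomas 8q is often gained and 8p is often lost. The long arm carries MYC at 8q24, and the short arm carries several candidate tumour suppressor genes. DNA copy number was not measured here, and its part in the values below was not tested.

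The libraries held 7693492 to 9304798 reads in peaks. Of 12 ovarian carcinoma markers, 10 had a gene-end peak and 7 averaged at least 3 CPM (the reads in a peak scaled to the reads in all peaks of the library). The gene-end peaks of KRT7, CDH1 and PAX8 were below that level, and MUC16 and ESR1 had none. Summed over 7 fibroblast markers, the level was 36.0 and 36.7 CPM in the control libraries and 50.1 and 53.4 in the dual-resistant line. It was 71.2 and 74.7 in the cisplatin-resistant line and 73.1 and 75.2 in the paclitaxel-resistant line. The sum over 7 haematopoietic markers was 62.8 to 89.2 CPM over the 8 libraries, and that over the 10 ovarian markers measured was 72.8 and 71.3 in control, 63.9 and 61.2 in the cisplatin-resistant line, 49.7 and 52.8 in the paclitaxel-resistant line and 64.3 and 63.2 in the dual-resistant line. The sum over the 2 endothelial markers measured was 10.3 to 14.9 CPM in the control and cisplatin-resistant libraries and 3.15 to 4.95 CPM in the other 4, with no overlap. Defining endothelial markers such as PECAM1, VWF and CDH5 had no gene-end peak. The part of these differences in the results below was not tested.

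In the cisplatin-resistant line the ATAC-seq signal of 8q was higher than in control and that of 8p was not. Member peaks on 8q took 1.98% and 1.99% of the reads in the control libraries and 2.87% in each cisplatin-resistant library. They took 1.84% and 1.85% in the paclitaxel-resistant line and 2.11% and 2.08% in the dual-resistant line. The cisplatin-resistant libraries were the highest, and no 2 groups overlapped. On 8p the shares were 1.15% and 1.16% in control, 1.13% and 1.12% in the cisplatin-resistant line and 1.13% in each paclitaxel-resistant library. The dual-resistant libraries stood above the others on 8p, at 1.29% and 1.28%. The 95% Wilson interval of such a share is at most 0.011 percentage points to either side, for counting error only.

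**Figure D1:**
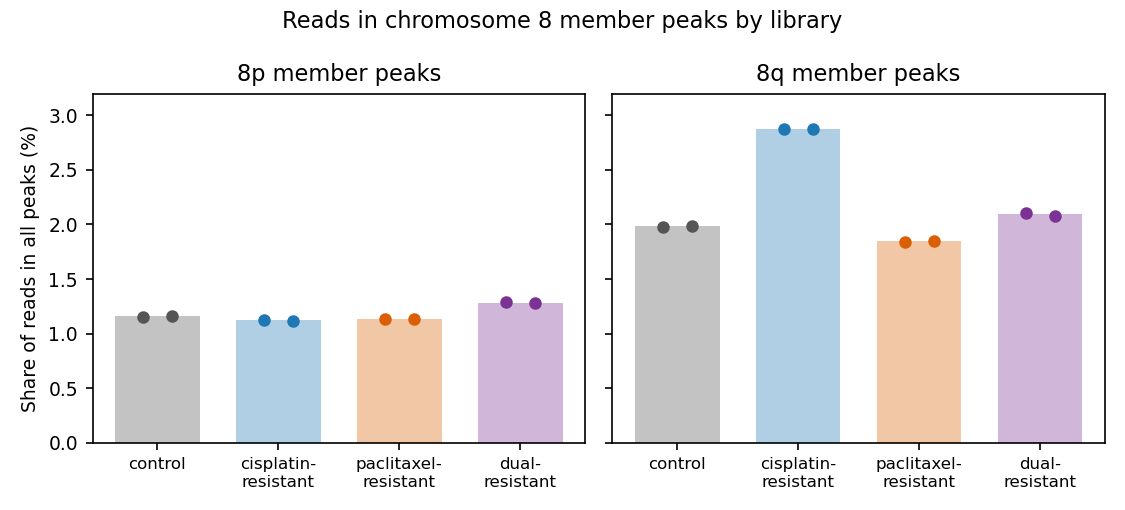
Share of all reads in peaks (%) that fell in member peaks of 8p and of 8q, with bars at the group mean and points for the 2 libraries. On 8q the cisplatin-resistant libraries reached 2.87% against 1.98% and 1.99% in control, and on 8p the dual-resistant libraries were the highest, at 1.29% and 1.28%.

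Each arm was also summarised by a relative median. This is the median over its tested peaks of the log2(CPM + 0.5) difference from the control mean, minus the same median over all 158698 tested peaks of the genome. That genome median was -0.086 in the cisplatin-resistant line, -0.14 in the paclitaxel-resistant line and 0.080 in the dual-resistant line. A peak was tested if it reached 1 CPM in at least 2 libraries, which 6441 member peaks did and 36 did not. The chromosome and the windows were chosen by accessibility differences from control seen earlier in these same libraries, so arm and bin values are a description and carry no test. On 8q the relative median was 0.54 in the cisplatin-resistant line (0.54 in both libraries), which corresponds to 1.46-fold. It was -0.056 in the paclitaxel-resistant line (-0.061 and -0.052) and 0.026 in the dual-resistant line (0.048 and 0.011). On 8p it was -0.095 in the cisplatin-resistant line (-0.081 and -0.11). It was -0.062 in the paclitaxel-resistant line (-0.057 and -0.042) and 0.10 in the dual-resistant line (0.11 and 0.091). A median of averaged libraries need not lie between those of the single libraries. Among 23 chromosomes, the members of chromosome 8 had the highest median in the cisplatin-resistant line, at 0.37. They ranked 17 in the paclitaxel-resistant line, at -0.066, and 6 in the dual-resistant line, at 0.047.

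Peak by peak, in the cisplatin-resistant line 1430 of 4243 tested 8q peaks rose (33.7%) and 264 fell (6.22%), by limma at an adjusted p under 0.05 over all tested peaks. On 8p 439 of 2082 rose (21.1%) and 430 fell (20.7%). Across all tested peaks, 18.3% rose and 14.9% fell (33.2% called in all). Over all members 1873 rose and 706 fell, and the number that fell was 468 without control library 1 and 458 without control library 2. Of the members, 325 rose (5.05%) and 568 fell (8.82%) in the paclitaxel-resistant line, against 7.26% and 9.17% of all tested peaks. The number that fell was 350 without control library 2, and with median-ratio scaling the split was 447 higher and 408 lower. In the dual-resistant line 568 members rose (8.82%) and 223 fell (3.46%), against 8.11% and 5.39% of all tested peaks. There the numbers were smaller without single libraries: 293 rose without dual-resistant library 1 and 372 without library 2. The number that fell was 103 without control library 1, 122 without control library 2 and 121 without dual-resistant library 1.

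**Figure D2:**
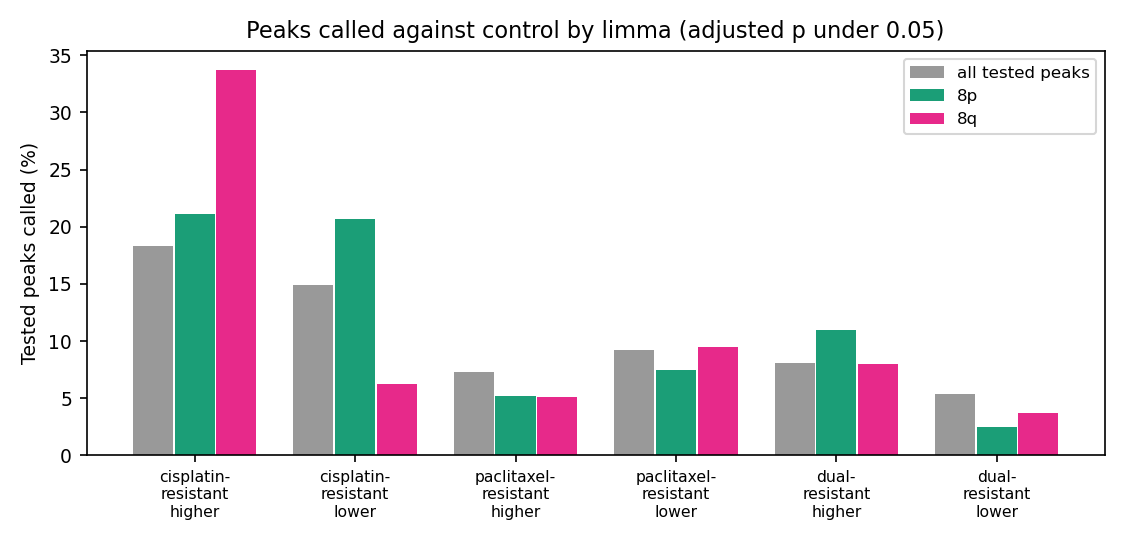
Share (%) of tested peaks called higher or lower than control by limma in each resistant line, for the whole genome (grey), 8p (green) and 8q (pink). In the cisplatin-resistant line 33.7% of 8q peaks rose against 18.3% of all peaks, and 20.7% of 8p peaks fell against 14.9%.

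Each peak in the file carries the name of the group whose peak call it was taken from, and these names were uneven along the genome. None of the 6477 member peaks was named after control. The 5064 peaks named after control lay on 3 of 23 chromosomes, 1, 10 and 11, and on chromosome 11 none ended beyond 7903883. On 8q 58.6% of member peaks were named after the cisplatin-resistant line, 11.5% after the paclitaxel-resistant line and 29.9% after the dual-resistant line. On 8p the shares were 32.7%, 18.2% and 49.1%, and over the genome 34.3%, 23% and 39.5%. Without the peaks named after the cisplatin-resistant line, the relative median of 8q in that line was 0.25. Without those named after the paclitaxel-resistant line, that of 8q in that line was 0.0064, above zero instead of below. The 8q median of the dual-resistant line was 0.070 without the peaks named after it. Regions open in control alone may therefore be missing from the members, which bears on the number that fell against the number that rose. The part of peak naming in those counts and in the single peaks below was not tested.

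Along the chromosome, in bins of 5 Mb, the cisplatin-resistant line had its lowest values on 8p and its highest on distal 8q. Medians were taken in 28 bins of 5 Mb that held at least 20 tested member peaks. A last bin, from 145 Mb, held 9 peaks and is not described. The highest bins in this line were 115 to 120 Mb, at 1.07 (libraries 1.06 and 1.09, 279 peaks), and the next bin, from 120 Mb, at 1.03 (1.06 and 1.04, 277 peaks). In the first 144 peaks rose and 9 fell, and in the second 152 rose and 1 fell. On the far side of the excluded MYC window, the bin of 130 to 135 Mb stood at 0.86 (0.94 and 0.90). The bin of 140 to 145 Mb, the largest with 850 peaks, stood at 0.60 (0.58 and 0.63), and 255 of its peaks rose against 1 that fell.

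The values between 65 and 90 Mb in that line were lower, from 0.27 to 0.38, and those between 90 and 105 Mb were 0.55 to 0.59. From 105 to 110 Mb the median was 0.28. The lowest bins were 15 to 20 Mb on 8p, at -0.52 (-0.57 and -0.51), where 118 of 283 peaks fell, and 5 to 10 Mb, at -0.41 (-0.32 and -0.44). On proximal 8q, 55 to 60 Mb was also low, at -0.31 (-0.30 and -0.43). Of the 28 bins, 20 lay above the genome median and 8 below. Medians of at least 0.25 were found in 16 of the 28 bins and in 141 of 594 bins of the genome, and medians of at least 1 in 2 of the 28 and 11 of 594. The libraries of the cisplatin-resistant line differed by 0.050 in the median bin and by 0.13 at most, and the control libraries by 0.092 at most.

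**Figure D3:**
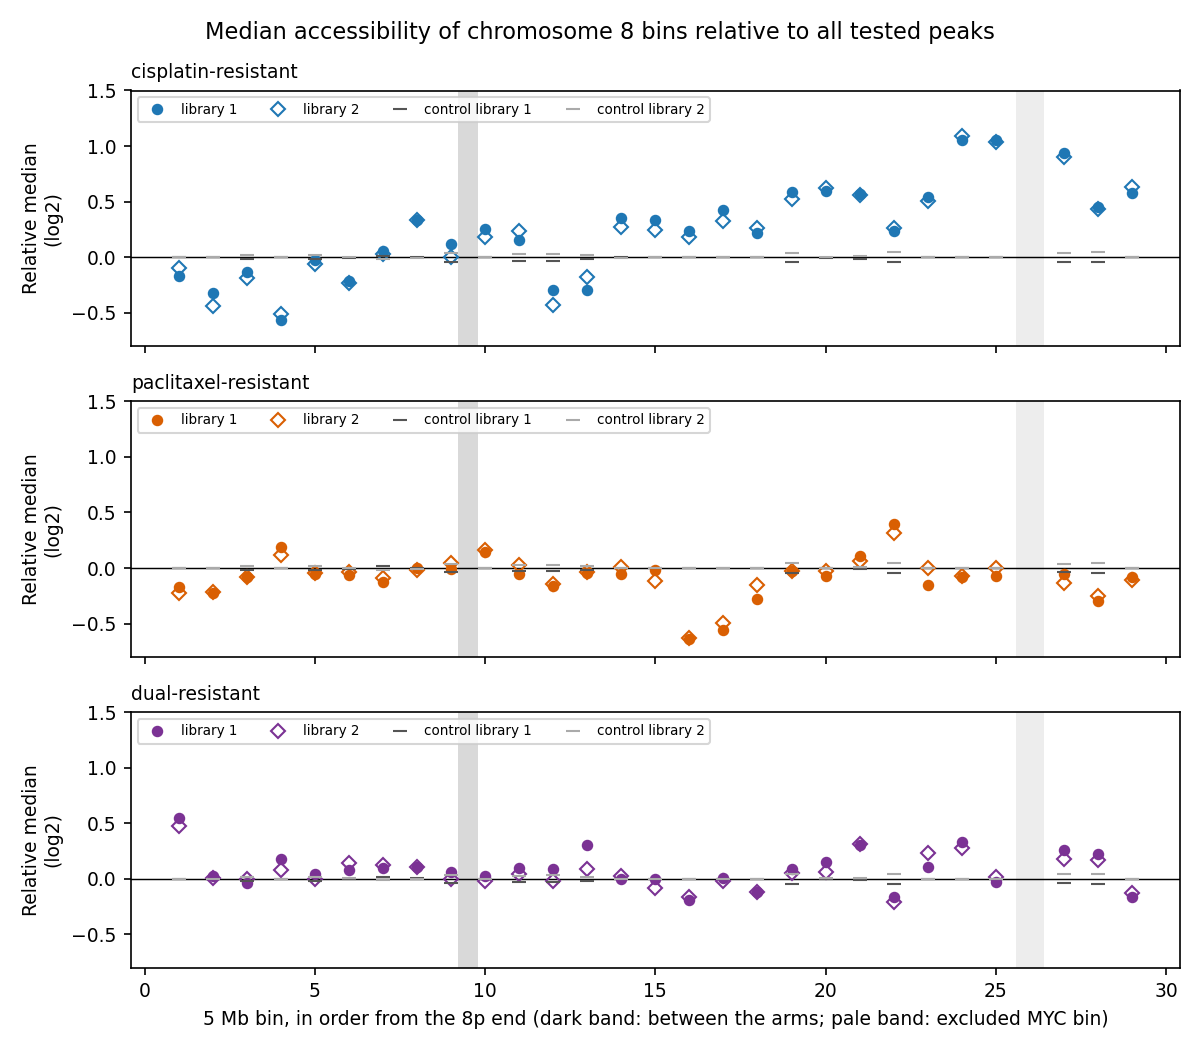
Relative median (log2) of member peaks in 28 bins of 5 Mb, numbered from the 8p end, with 1 panel per resistant line, filled circles for library 1, open diamonds for library 2 and dashes for the control libraries. The cisplatin-resistant libraries reach 1.06 and 1.09 in bin 24 and -0.57 and -0.51 in bin 4, the paclitaxel-resistant libraries -0.64 and -0.63 in bin 16, and the dual-resistant libraries 0.55 and 0.48 in bin 1.

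The paclitaxel-resistant line had its low values in 2 neighbouring bins of 8q. These were 75 to 80 Mb, at -0.61 (-0.64 and -0.63, 105 peaks), and 80 to 85 Mb, at -0.53 (-0.56 and -0.50, 231 peaks). In them 37 and 81 peaks fell and 4 and 5 rose. The cisplatin-resistant line stood at 0.27 and 0.38 in the same bins. The highest bin of the paclitaxel-resistant line was 105 to 110 Mb, at 0.34 (0.40 and 0.31), where 49 of 217 peaks rose. That bin was the lowest of the dual-resistant line, at -0.21 (-0.16 and -0.21), where 20 peaks fell and 7 rose.

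The dual-resistant line was highest at the tip of 8p, in the bin of 0 to 5 Mb, at 0.45 (0.55 and 0.48), where 76 of 200 peaks rose and 1 fell. Its next highest bins were 100 to 105 Mb, at 0.33 (0.30 and 0.31), and 115 to 120 Mb, at 0.31 (0.34 and 0.28). In the bin from 120 Mb, where the cisplatin-resistant line stood at 1.03, the dual-resistant line stood at -0.015 (-0.032 and 0.019). Its 2 libraries differed by up to 0.21 in a bin, at 60 to 65 Mb.

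Bins of 2 Mb that held at least 20 tested peaks had wider extremes. The dual-resistant line reached 2.29 at 4 to 6 Mb (2.43 and 2.21, 75 peaks), while the other lines stood at -0.20 and -0.24 there. The cisplatin-resistant line reached 1.71 at 118 to 120 Mb, 1.45 at 120 to 122 Mb and 1.44 at 130 to 132 Mb. It also reached 1.31 at 88 to 90 Mb and 1.12 at 32 to 34 Mb on 8p. At this width its lowest values were on proximal 8q, at -0.89 (58 to 60 Mb, 28 peaks) and -0.72 (56 to 58 Mb, 40 peaks). Its lowest value on 8p was -0.66, at 20 to 22 Mb (39 peaks). Beyond 86 Mb its rise was broad: each of these bins stood at 0.33 or more, apart from 104 to 106 Mb at 0.0060. A stretch of 11 peaks at 34 to 36 Mb, too few to be described with the others, stood at 2.01. The paclitaxel-resistant line stood at -1.37 at 82 to 84 Mb (-1.41 and -1.40, 96 peaks) and -1.03 at 76 to 78 Mb, and reached 1.03 at 104 to 106 Mb. At 44 to 46 Mb, between the arms, all 3 lines were low, at -0.64, -0.56 and -0.99 (61 peaks).

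The 116 tested peaks between the arms were low in each resistant line. Their relative median was -0.27 in the cisplatin-resistant line, -0.32 in the paclitaxel-resistant line and -0.49 in the dual-resistant line. They took 0.031% and 0.028% of reads in the control libraries and 0.019% to 0.026% in the other 6. Of them 12, 11 and 13 fell in the 3 lines in that order (10.3%, 9.48% and 11.2%, against 14.9%, 9.17% and 5.39% of all tested peaks), and 4, 0 and 1 rose. This interval surrounds the centromere, whose repeats make it hard to place reads.

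The windows that were left out frame these values. Peaks of the MYC window had a relative median of 1.20 in the cisplatin-resistant line (392 peaks), above the bins on either side of it. In the paclitaxel-resistant line they stood at -0.067 and in the dual-resistant line at -0.034. The LY6K window (210 peaks) stood at 0.54, -0.12 and -0.13 in the 3 lines, near the 0.60, -0.074 and -0.14 of the bin around it. The PI15 window (82 peaks) stood at 1.01, -1.95 and -2.16. In the paclitaxel-resistant and dual-resistant lines these lie further from zero than any of the 28 bins, whose lowest values were -0.61 and -0.21. The PI15 window is narrower than those bins, so the comparison is not one of like widths. In bins of 2 Mb the dual-resistant line reached 2.29 at 4 to 6 Mb, further from zero than its -2.16 in the window. The paclitaxel-resistant line stood lowest at 82 to 84 Mb, at -1.37, nearer to zero than its -1.95 in the window.

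The 8q values of the cisplatin-resistant line were found in gene-end, genic and intergenic peaks. Of the members, 879 lay within 1 kb of an end of a RefSeq protein-coding gene (13.6%, against 17% of all peaks), and these form the gene-end class. On 8q the relative median was 0.41 at gene ends, 0.57 at other peaks inside genes and 0.60 outside genes. The same classes over the genome stood at -0.082, 0.063 and -0.011. The values differed with peak strength. In the lowest quartile of tested member peaks by mean CPM (up to 1.74 CPM) the 8q median was 0.93, and in the highest quartile (from 4.4 CPM) it was 0.38. On 8p the same quartiles stood at 0.31 and -0.27, on opposite sides of the genome median. Between 70 and 90 Mb they stood at 0.998 and -0.0055. The quartiles were not set against peaks of like strength over the genome. Weak peaks can pass the filter on low values through the line in which they are high, and the part of this was not tested. In the bins from 115 and 120 Mb together the classes stood at 0.60, 0.94 and 1.39, and 73.3% of the peaks there were named after the cisplatin-resistant line.

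To find peaks that differ from their surroundings, the fit was repeated after the median of each 5 Mb bin had been subtracted in each library. Against their own bin, 1057 members were higher and 1478 lower in the cisplatin-resistant line (16.4% and 22.9%, against 14.0% and 18.8% of all tested peaks). Of the 1873 that rose in the first fit, 1043 were again called higher. When the median difference of the bin was subtracted instead of its median level, the number lower was 736. The paclitaxel-resistant line had 544 higher and 363 lower (8.45% and 5.64%, against 8.64% and 6.09%). In the dual-resistant line 337 were higher and 576 lower (5.23% and 8.94%, against 4.55% and 9.11%), and 321 were lower with the median difference subtracted.

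Gene ends, which include promoters, were measured for 531 of 714 protein-coding genes of chromosome 8. The value of a gene is that of its gene-end peak, the strongest tested peak within 1 kb of either end. In the cisplatin-resistant line 159 rose and 115 fell (29.9% and 21.7%), against 11.1% and 28.6% of 15949 gene ends in the genome. The paclitaxel-resistant line had 49 that rose and 78 that fell (9.23% and 14.7%, against 12.7% and 9.68%). In the dual-resistant line 28 rose and 75 fell (5.27% and 14.1%, against 4.86% and 14.8%). Against their own bins, 34 were higher and 283 lower in the cisplatin-resistant line (6.4% and 53.3%, against 6.13% and 39.4% of gene ends in the genome). The paclitaxel-resistant line had 160 higher and 51 lower (30.1% and 9.6%, against 24.1% and 7.01%), and the dual-resistant line 22 and 191 (4.14% and 36%, against 3.32% and 31.2%). The median log2 differences from control were 0.053, -0.037 and -0.11 on chromosome 8 and -0.19, 0.011 and -0.13 over the genome.

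The largest rises at gene ends in the cisplatin-resistant line were on 8q. SLA, which encodes an adaptor of lymphocyte receptor signalling, had 0.78 and 0.26 CPM in control and 17.3 and 13.6 CPM in the cisplatin-resistant line (8:133036559-133037559). The log2 difference was 4.01 (SE 0.43, limma adjusted p = 4.0e-13). The other 4 libraries held 0.24 to 1.36 CPM, so the cisplatin-resistant libraries stood apart from all others. CCN3, which encodes a secreted matricellular protein, had 1.95 and 1.80 CPM in control and 25.3 and 22.1 CPM in the cisplatin-resistant line (8:119416101-119417101; log2 difference 3.35, SE 0.33, limma adjusted p = 4.8e-15). It held 0.97 to 1.85 CPM in the other 2 lines. ANXA13, an annexin gene, rose by 3.95, the zinc finger gene ZNF572 by 3.57, and CTHRC1, for a secreted collagen-repeat protein, by 3.34. TSPYL5 rose by 3.15. These genes were picked as the largest rises, and SLA, ANXA13 and TSPYL5 passed the filter on low values only through the cisplatin-resistant libraries. Where control held 3 reads or fewer, about 0.39 CPM, a log2 difference depends on the pseudocount and is no measure of fold.

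NDRG1, a stress-responsive gene, had 16.6 and 18.9 CPM in control, 45.1 and 46.2 in the cisplatin-resistant line, 28.2 and 27.0 in the dual-resistant line and 13.7 and 14.5 in the paclitaxel-resistant line (8:133297155-133298155). The cisplatin-resistant libraries were the highest and the groups did not overlap. It rose by 1.34 in the cisplatin-resistant line and by 0.62 in the dual-resistant line (limma adjusted p = 9.3e-14 and 0.00050). Against its own bin the differences were 0.32 and 0.35 and were not called (adjusted p = 0.062 and 0.085).

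Gene ends that fell in the cisplatin-resistant line included genes with low values in other lines too. CA8, which encodes a carbonic anhydrase-related protein without catalytic activity, had 9.23 and 12.4 CPM in control and 1.35 and 1.52 in the cisplatin-resistant line (8:60280522-60281522). It had 4.49 and 2.14 CPM in the paclitaxel-resistant line and 2.72 and 1.40 in the dual-resistant line, so all 6 resistant libraries lay below control. The log2 differences were -2.53, -1.62 and -2.18 (SE 0.34, limma adjusted p = 1.9e-09, 0.00014 and 3.4e-07). SNTG1, a syntrophin gene, fell by 2.43 in the cisplatin-resistant line and by 1.68 in the dual-resistant line, and stood at -0.13 in the paclitaxel-resistant line (adjusted p = 0.85). NKX6-3, a homeobox gene, had 5.07 and 5.41 CPM in control, 1.01 and 1.05 in the cisplatin-resistant line and 5.44 to 6.18 in the other 2 lines. It fell by 1.90 in the cisplatin-resistant line (limma adjusted p = 3.7e-07). SFRP1, for a secreted WNT inhibitor, fell by 1.86 there (5.07 and 4.76 against 1.35 and 0.70 CPM). FAM90A12 and FAM90A8 fell by 1.97 and 1.94, but they belong to a multicopy family and reads may be shared between copies.

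The TRAIL receptor genes on 8p21 divided. TNFRSF10A and TNFRSF10B encode death receptors, and TNFRSF10D encodes a decoy receptor that lacks a working death domain. TNFRSF10D had 2.99 and 3.6 CPM in control and 9 and 7.37 in the cisplatin-resistant line (8:23163312-23164312). It had 26 and 32.8 CPM in the paclitaxel-resistant line and 30.8 and 26.8 in the dual-resistant line. The latter 2 groups overlapped, and both lay above the cisplatin-resistant libraries, which lay above control. The rises were 1.19, 2.97 and 2.95 (SE 0.19, limma adjusted p = 1.5e-07, 1.7e-26 and 6.3e-26). TNFRSF10A had 2.21 and 1.29 CPM in control, 6.19 and 7.02 in the cisplatin-resistant line and 0.36 to 0.67 in the other 2 lines (8:23224818-23225818). It rose by 1.69 in the cisplatin-resistant line (SE 0.44, limma adjusted p = 0.0013). It stood at -1.13 and -1.11 in the paclitaxel-resistant and dual-resistant lines (adjusted p = 0.065 and 0.081). The peak of TNFRSF10B, shared with RHOBTB2, held 20.5 to 29.5 CPM over the 8 libraries and was not called in any line. TNFRSF10C had no gene-end peak among the tested peaks.

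Of the 6 largest rises at gene ends in the paclitaxel-resistant line, TNFRSF10D among them, 5 were on 8p. EPHX2, which encodes soluble epoxide hydrolase, had 1.56 and 1.29 CPM in control and 7.09 and 5.38 in the cisplatin-resistant line (8:27490459-27491459). It had 18.7 and 15.8 CPM in the paclitaxel-resistant line and 18.1 and 17.6 in the dual-resistant line. All 6 resistant libraries lay above control, and the rises were 1.80, 3.21 and 3.26 (SE 0.23, limma adjusted p = 3.5e-10, 1.5e-22 and 1.0e-22). TCIM, a regulator of transcription and immune response, had 0.26 and 1.03 CPM in control and 10.6 and 11.6 in the paclitaxel-resistant line (8:40152943-40153943). It had 6.06 and 4.30 CPM in the dual-resistant line and 1.35 and 1.40 in the cisplatin-resistant line. It rose by 3.42 and 2.38 in the paclitaxel-resistant and dual-resistant lines (limma adjusted p = 6.6e-14 and 8.3e-08). IDO2, for a tryptophan-degrading enzyme, rose by 3.17 in the paclitaxel-resistant line (0.39 and 0.64 against 9.47 and 7.75 CPM) and by 1.33 in the dual-resistant line. ZMAT4, a zinc finger gene, rose by 2.56 and FSBP on 8q by 1.65 in the paclitaxel-resistant line.

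The largest falls in that line were on both arms. ZFHX4, a zinc finger homeobox gene, had 13.5 and 10.9 CPM in control and 0.73 and 0.11 in the paclitaxel-resistant line (8:76680506-76681506). It had 9.45 and 7.95 CPM in the cisplatin-resistant line and 9.64 and 8.92 in the dual-resistant line, so the paclitaxel-resistant libraries stood apart. The difference was -3.87 (SE 0.28, limma adjusted p = 2.6e-22), and -2.91 against its own bin. MMP16, for a membrane-bound matrix metalloprotease, had 30.8 and 28.6 CPM in control and 4.61 and 5.51 in the paclitaxel-resistant line (8:88327365-88328365). It had 10.5 and 14.3 CPM in the dual-resistant line and 52.3 and 43.0 in the cisplatin-resistant line. It fell by 2.44 and 1.24 in the first 2 lines and rose by 0.67 in the third (limma adjusted p = 1.1e-24, 1.5e-09 and 0.00065). XKR6 on 8p fell by 2.53 in the paclitaxel-resistant line and by 0.89 and 1.06 in the cisplatin-resistant and dual-resistant lines. LPL, the lipoprotein lipase gene, fell by 2.12 in the paclitaxel-resistant line and by 1.67 in the dual-resistant line (7.02 and 7.47 CPM in control against 1.12 to 2.15 CPM). CA3, a muscle carbonic anhydrase gene, fell by 1.86 and TRIQK by 1.85 in the paclitaxel-resistant line.

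The largest rises at gene ends in the dual-resistant line were EPHX2, TNFRSF10D and TCIM, given above. The next was on 8q. SLC30A8, for a zinc transporter of pancreatic beta cells, had 1.43 and 0.51 CPM in control and 6.31 and 5.05 in the dual-resistant line (8:117175912-117176912). The other 4 libraries held 0.23 to 0.73 CPM. It rose by 2.13 (SE 0.47, limma adjusted p = 0.00032), and by 1.45 against its own bin. The SLC30A8 peak passed the filter on low values only through the dual-resistant libraries. PKIA, for an inhibitor of protein kinase A, rose by 1.66, and without dual-resistant library 2 it stood at 1.44 with no call (limma adjusted p = 0.066). Among those that fell, JPH1, a junctophilin gene, had 13.5 and 12.4 CPM in control, 1.11 and 3.44 in the dual-resistant line, 5.10 and 4.94 in the paclitaxel-resistant line and 15.4 and 14.7 in the cisplatin-resistant line (8:74320223-74321223). It fell by 2.41 in the dual-resistant line and by 1.28 in the paclitaxel-resistant line (limma adjusted p = 2.5e-13 and 4.9e-05). The next largest falls were CA8, SNTG1 and LPL, given above, then KCNV1, a potassium channel gene (-1.25), and MMP16. KCNV1 was not called without control library 2 (-1.05, limma adjusted p = 0.067) or dual-resistant library 2 (-0.90, adjusted p = 0.098).

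**Figure D4:**
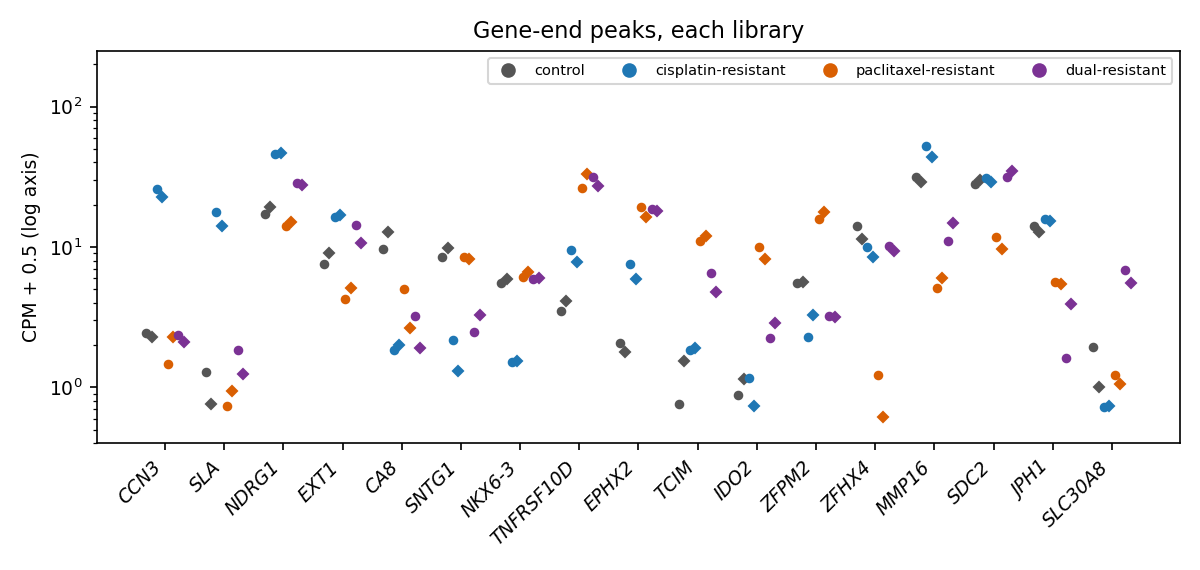
Level of 17 gene-end peaks in each library, as CPM + 0.5 on a log axis, with circles for library 1 and diamonds for library 2. CCN3 is high only in the 2 cisplatin-resistant libraries, ZFHX4 is low only in the 2 paclitaxel-resistant libraries, and TNFRSF10D and EPHX2 are higher than control in all 6 resistant libraries.

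The gene lists that follow are to be read beside the shares of all gene ends above, and each count against the bin is for the cisplatin-resistant line. In that line 29.9% of chromosome 8 gene ends rose and 53.3% were lower than their bin. These bin counts subtract the median level of the bin. With the median difference subtracted, 736 members were lower instead of 1478, and the lists were not counted in that way. Of 18 measured genes among 20 candidate tumour suppressors of 8p, 2 rose and 7 fell in the cisplatin-resistant line. In the paclitaxel-resistant line 2 rose and 3 fell, and in the dual-resistant line 1 rose and 3 fell. Set against their bins, 3 were higher and 7 lower. The 7 that fell are 38.9% of the list, against 28.6% of gene ends in the genome. The median differences were -0.30, -0.11 and -0.088. On 8p, TUSC3 rose in the cisplatin-resistant line and DLC1 in the paclitaxel-resistant line. TUSC3 depended on single libraries, at 1.10 to 1.38 and with no call when any control or cisplatin-resistant library was left out. DLC1 was not called with a pseudocount of 0.1 (3.02, limma adjusted p = 0.072). It also had no call without control library 1 (1.25) or without paclitaxel-resistant library 2 (1.63). LZTS1 had 12 and 10.4 CPM in control, 4.5 and 1.87 in the cisplatin-resistant line and 4.86 and 5.51 in the paclitaxel-resistant line. It fell by 1.76 and 1.04 there (limma adjusted p = 2.0e-08 and 0.0015) and stood at -0.18 in the dual-resistant line. DUSP4, which encodes a MAP kinase phosphatase, fell by 0.75, 1.26 and 1.07 in the cisplatin-resistant, paclitaxel-resistant and dual-resistant lines. The last was not called without control library 2 (-0.78, limma adjusted p = 0.078).

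Genes of DNA repair and genome maintenance were measured for 20 of 21, and 8 rose and 1 fell in the cisplatin-resistant line, with a median of 0.14. None was higher than its own bin and 13 were lower. In the paclitaxel-resistant line 2 rose and 1 fell, and in the dual-resistant line none rose and 1 fell. NBN, of the complex that senses DNA breaks, had 51.0 and 44.1 CPM in control and 62.8 and 68.3 in the cisplatin-resistant line, and rose by 0.46 (SE 0.10, limma adjusted p = 0.00012). RAD21, a cohesin subunit, had 26.4 and 26.8 CPM in control and 37.1 and 36.1 in the cisplatin-resistant line, and also rose by 0.46 (SE 0.13, adjusted p = 0.0027). The relative median of its bin was 1.07. In the fit with the median level of the bin subtracted, a different measure, RAD21 was lower, at -0.89. UBE2V2, for a ubiquitin-conjugating enzyme variant of DNA damage tolerance, fell by 1.07. WRN, POLB and PRKDC, of helicase, base excision and end-joining repair, were not called in any line, with differences from -0.22 to 0.29. The peak of WRN is shared with PURG and that of PRKDC with MCM4.

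Of 26 measured genes among 29 linked to growth on 8q, 11 rose and 2 fell in the cisplatin-resistant line, 3 rose and 5 fell in the paclitaxel-resistant line, and 1 rose and 5 fell in the dual-resistant line. Relative to the bin, none was higher and 15 were lower. EXT1, for a polymerase of heparan sulfate, had 7.02 and 8.62 CPM in control, 15.8 and 16.5 in the cisplatin-resistant line and 3.76 and 4.61 in the paclitaxel-resistant line. It rose by 1.0 and fell by 0.83 there (limma adjusted p = 0.00010 and 0.0028). YWHAZ, a 14-3-3 gene, rose by 0.35 in the cisplatin-resistant line, and the difference was 0.15 without cisplatin-resistant library 2 (limma adjusted p = 0.40). PTK2, for focal adhesion kinase, held 41.1 to 42.5 CPM in the control and cisplatin-resistant libraries, 33.1 and 28.0 in the paclitaxel-resistant line and 22.8 and 30.3 in the dual-resistant line. It fell by 0.66 in the dual-resistant line (limma adjusted p = 1.9e-05). It fell by 0.45 in the paclitaxel-resistant line, where the call ended without control library 1 (adjusted p = 0.062), without paclitaxel-resistant library 2 (adjusted p = 0.17) and with median-ratio scaling (-0.28, adjusted p = 0.12). HSF1, the heat shock factor gene, fell by 0.52 and 0.55 in the paclitaxel-resistant and dual-resistant lines, and neither call held without control library 1 (-0.46 and -0.49, limma adjusted p = 0.073 and 0.058). With median-ratio scaling the first was -0.35 (adjusted p = 0.072).

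Among 16 genes of ribosome, translation and respiratory chain, all measured, 10 rose and 2 fell in the cisplatin-resistant line, with a median of 0.32. Of the 16, none was higher than its own bin and 11 were lower. In the paclitaxel-resistant line 2 rose and none fell, and in the dual-resistant line none rose and 2 fell. By comparison, in the FGFR1 neighbourhood on 8p11, an interval amplified in some carcinomas, 21 of 22 genes were measured and 2 rose and 1 fell in the cisplatin-resistant line. There, 16 were lower than their own bin and none was higher. FGFR1 itself held 11.9 to 17.8 CPM over the 8 libraries and was not called in any line.

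Developmental transcription factors were measured for 18 of 23. In the cisplatin-resistant line 4 rose and 6 fell, in the paclitaxel-resistant line 2 rose and 7 fell, and in the dual-resistant line none rose and 4 fell. Against their own bins 2 were higher and 9 lower. The 6 that fell are 33.3% of the list, against 28.6% of gene ends in the genome. SOX17, an endoderm and Mullerian factor, had 10.1 and 11.5 CPM in control, 6.87 and 4.91 in the cisplatin-resistant line and 4.49 and 5.96 in the paclitaxel-resistant line. It fell by 0.99 in the latter (limma adjusted p = 0.00089). It fell by 0.84 in the cisplatin-resistant line, with no call without control library 2 (-0.75, adjusted p = 0.052) or cisplatin-resistant library 2 (-0.61, adjusted p = 0.093). It held 8.04 and 11.7 CPM in the dual-resistant line. MSC, for musculin, rose by 2.03 and SCX, for scleraxis, by 1.76 in the cisplatin-resistant line, while PRDM14, a germ cell factor, fell by 1.36. GATA4 had no gene-end peak among the tested peaks.

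Of 19 measured genes for secreted signals and their receptors among 22 listed, 2 rose and 6 fell in the cisplatin-resistant line, 2 rose and 5 fell in the paclitaxel-resistant line, and none rose and 4 fell in the dual-resistant line. Against their own bins 1 was higher and 9 lower. The 6 that fell are 31.6% of the list, against 28.6% of gene ends in the genome. CCN3, described above, was 1 of the 2 that rose in the cisplatin-resistant line. FGF20 fell in all 3 lines, by 1.19, 0.91 and 0.58, from 17.8 and 16.3 CPM in control to 6.64 to 12.1 CPM in the 6 resistant libraries. RSPO2, an activator of WNT signalling, fell by 0.72, 1.14 and 0.92. IL7, the interleukin gene, fell by 1.32 and 0.63 in the paclitaxel-resistant and dual-resistant lines, and GDF6, of the BMP family, by 1.69 in the paclitaxel-resistant line. CLU, for clusterin, rose by 0.36 in the paclitaxel-resistant line (30.0 and 31.5 against 43.2 and 36.5 CPM). That call ended without either control library (limma adjusted p = 0.17 and 0.083), without paclitaxel-resistant library 1 (0.38) and with quantile scaling (0.17).

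The remaining lists held fewer measured genes. Of 9 measured genes for metalloproteases and matrix, 6 rose and none fell in the cisplatin-resistant line, while 2 fell in the paclitaxel-resistant line, MMP16 and SDC2. Against their own bins 3 were higher and 3 lower. SDC2, for the proteoglycan syndecan 2, had 27.4 and 29.5 CPM in control and 11.3 and 9.10 in the paclitaxel-resistant line, and fell by 1.44 (limma adjusted p = 6.6e-15). Of 13 measured proton pumps and solute carriers, 5 rose and 3 fell in the cisplatin-resistant line (2 higher and 8 lower than their bins), 1 rose and 1 fell in the paclitaxel-resistant line, and 3 rose and 3 fell in the dual-resistant line. SLC39A4, a zinc importer gene, rose from 26.4 and 30.5 CPM in control to 62.8 and 60.5 in the cisplatin-resistant line and to 38.2 and 44.5 in the dual-resistant line. The rises were 1.11 and 0.53 (limma adjusted p = 2.3e-13 and 0.00040). Of 6 measured carbonic anhydrases and fatty acid binding proteins on 8q21, 3 rose and 2 fell, 1 rose and 3 fell, and 1 rose and 1 fell in the 3 lines. Of 18 defensin genes on 8p23, 3 were measured, and of 11 ion channel genes, 4.

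Away from gene ends, whole groups of peaks around single genes differed between the lines. Each distal peak was assigned to its nearest protein-coding gene within 100 kb. In each line genes were picked for their number of called distal peaks, so the counts are a description. In the cisplatin-resistant line the genes with the most raised distal peaks were EXT1 (44 of 58), ASAP1 (39 of 65) and PTK2 (39 of 97), and none of these peaks fell. Over all tested peaks 18.3% rose and 14.9% fell in this line. ASAP1 encodes a regulator of ARF GTPases. Around EXT1 the distal peaks summed to 84.0 and 84.2 CPM in control and 375.1 and 352.4 CPM in the cisplatin-resistant line. They summed to 67.1 and 73.7 CPM in the paclitaxel-resistant line and 118.1 and 116.5 CPM in the dual-resistant line. The groups did not overlap. Around PTK2 the distal sum was 207.8 and 207.1 CPM in control and 510.3 and 499.0 in the cisplatin-resistant line, where the gene-end peak itself stood at 0.00 (limma adjusted p = 0.98). The genes with the most lowered distal peaks in that line were PCM1 (39 of 59), for a centriolar satellite protein, and MTUS1 (21 of 55), for a microtubule-associated protein. Both lie in the bin of 15 to 20 Mb. The third was OXR1 (13 of 42), an oxidation resistance gene. Around PCM1 the sum was 238.9 and 246.1 CPM in control and 106.7 and 115.4 in the cisplatin-resistant line, against 263.5 to 322.2 in the other 2 lines.

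Around ZFPM2, a cofactor gene of GATA factors, 34 of 60 distal peaks rose and 1 fell in the paclitaxel-resistant line. Their sum was 64.9 and 65.6 CPM in control, 312.4 and 304.1 in the paclitaxel-resistant line, 90 and 89.6 in the cisplatin-resistant line and 50.6 and 51.4 in the dual-resistant line. The gene-end peak of ZFPM2 went the same way, with 5.07 and 5.15 CPM in control and 15.3 and 17.2 in the paclitaxel-resistant line. Around SNTG1, 20 of 35 distal peaks rose, although its gene end was not called in this line. Around TCIM, 17 of 21 rose in the paclitaxel-resistant line and 12 in the dual-resistant line. The TCIM sums were 20.1 and 18.5 CPM in control, 187.8 and 188.9 in the paclitaxel-resistant line, 70.7 and 66.3 in the dual-resistant line and 50 and 45 in the cisplatin-resistant line. The most lowered groups were ZFHX4 (15 of 21) and SDC2 (11 of 20). Around SDC2 the sum was 74.6 and 71.4 CPM in control and 12.4 and 11.9 in the paclitaxel-resistant line, while the dual-resistant libraries held 96.7 and 95.1. LOC124902048 had 10 of 32 lowered. Over all tested peaks 7.26% rose and 9.17% fell in the paclitaxel-resistant line.

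In the dual-resistant line 71 of 79 distal peaks around CSMD1 rose and none fell, with a median difference of 2.32. CSMD1, on distal 8p, encodes a large membrane protein with complement-regulating domains. Its distal peaks summed to 65.2 and 69.4 CPM in control and 544.8 and 502.5 in the dual-resistant line, against 39.9 to 45.7 in the other 4 libraries. In order along the chromosome, 38 consecutive tested peaks rose here, over 393 kb (8:4604628-4997852). These 38 peaks summed to 23.9 and 28.8 CPM in control and 17.4 to 20.3 CPM in the other 2 lines. That is under 1 CPM per peak, as are the CSMD1 sums of these libraries above. Many of these peaks may have passed the filter on low values only through the dual-resistant libraries, so both counts are a description. Around SLC30A8, 29 of 38 rose, from 48.1 and 51.2 CPM in control to 287.2 and 268.7. Around BAALC, a gene named for its expression in brain and acute leukaemia, 21 of 30 rose, from 45.2 and 38.7 CPM to 202.0 and 185.1. The other 4 libraries held 46.7 to 64.9 CPM around SLC30A8 and 50.5 to 53.1 around BAALC. The SLC30A8 sites lie in the bin of 115 to 120 Mb and the CSMD1 sites in that of 0 to 5 Mb. The most lowered groups were OXR1 (13 of 42), ZFHX4 (7 of 21) and ADGRB1 (4 of 21). Over all tested peaks 8.11% rose and 5.39% fell in the dual-resistant line.

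**Figure D5:**
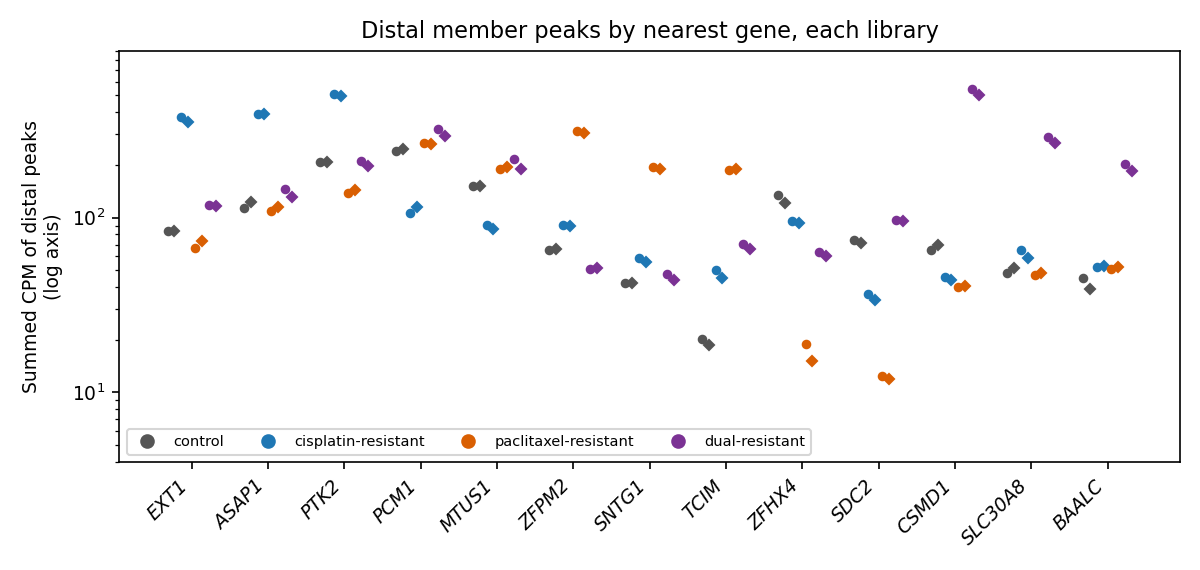
Summed CPM of the distal peaks nearest to each of 13 genes in each library, on a log axis, with circles for library 1 and diamonds for library 2. The cisplatin-resistant libraries are highest at EXT1, ASAP1 and PTK2, the paclitaxel-resistant libraries at ZFPM2, SNTG1 and TCIM, and the dual-resistant libraries at CSMD1, SLC30A8 and BAALC.

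Single distal peaks were chosen as those furthest from their bins, so their values are a description. A peak 13191 bases from IDO1, which encodes another tryptophan-degrading enzyme, had 0.39 CPM in each control library and 0.90 and 1.05 in the cisplatin-resistant line (8:39899700-39900700). It had 36.7 and 37.0 CPM in the paclitaxel-resistant line and 22.9 and 22.8 in the dual-resistant line. Against its own bin it stood at 5.63 and 4.47 in the latter 2 lines. A peak 46289 bases from OSGIN2 had 0.65 and 0.13 CPM in control, 21.9 and 18.4 in the cisplatin-resistant line and at most 1.24 elsewhere (8:89854579-89855579; 4.36 against its bin). Inside CSMD1 a peak had 0.26 and 0.90 CPM in control and 25.6 and 22.9 in the dual-resistant line (8:4715464-4716464; 3.46 against its bin). The OSGIN2 and CSMD1 peaks passed the filter on low values only through the line in which they are high.

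Inside SDC2 a peak had 21.1 and 19.0 CPM in control, 1.46 and 0.47 in the cisplatin-resistant line, 0.85 and 1.46 in the paclitaxel-resistant line and 23.6 and 26.9 in the dual-resistant line (8:96518403-96519403). The log2 differences were -3.90 and -3.66 in the single-drug lines and 0.32 in the dual-resistant line. A peak inside OXR1 had 9.36 and 7.59 CPM in control, 9.47 and 7.75 in the paclitaxel-resistant line and 0.11 to 0.65 in the other 2 lines (8:106316714-106317714). A peak inside ZDHHC2, for a palmitoyltransferase, had 23.3 and 26.6 CPM in control and 0.87 to 6.29 in all 6 resistant libraries (8:17158165-17159165). The differences were -2.73, -2.22 and -3.68. At 82 Mb, with no protein-coding gene within 100 kb, a peak had 28.3 and 26.1 CPM in control and 43.4 and 31.6 in the cisplatin-resistant line (8:82191368-82192368). It had 1.09 and 0.45 CPM in the paclitaxel-resistant line and 2.10 and 2.36 in the dual-resistant line, differences of -4.49 and -3.34. Further along, 19 consecutive tested peaks fell in the paclitaxel-resistant line (8:82329060-82444031), from a sum of 287.4 and 270.7 CPM in control to 26.3 and 20.2. The dual-resistant libraries held 131.3 and 134.9 CPM there and the cisplatin-resistant libraries 81.8 and 86.8.

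The resistant lines were also compared with each other in the same fit. The log2 differences between lines do not use the control values, but the spread was estimated from all 8 libraries. Between the cisplatin-resistant and paclitaxel-resistant lines 2400 members were higher in the former (37.3%, against 23.4% of all tested peaks) and 615 in the latter (9.55%, against 15.3%). Between the dual-resistant and cisplatin-resistant lines 1226 were higher in the dual-resistant line (19.0%, against 21.9%) and 1894 lower (29.4%, against 19.9%). On 8q that comparison had 500 higher and 1452 lower, and on 8p 720 higher and 434 lower. Between the dual-resistant and paclitaxel-resistant lines 1144 were higher in the dual-resistant line (17.8%, against 14.9%) and 294 lower (4.56%, against 7.44%). A further contrast, which uses the control libraries, compared the dual-resistant difference from control with the sum of the cisplatin-resistant and paclitaxel-resistant differences. It was above that sum for 1140 members (17.7%, against 19.3% of all tested peaks) and below it for 1266 (19.7%, against 15%). On 8p 592 were above and 308 below, and on 8q 539 were above and 953 below. At TNFRSF10D and EPHX2 the dual-resistant and paclitaxel-resistant lines differed by -0.024 and 0.050 (SE 0.19 and 0.23), and no difference was called.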

How the data were processed

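The deposited table holds CPM values (reads scaled by library total) in 159451 peaks of 8 ATAC-seq libraries. Per the submitters' processing notes, Bowtie2, Picard and MACS2 were used with the build hg38; no source used here gives versions, settings, a read shift for the transposase or how duplicates were treated. The CPM values made by the authors were whole multiples of 1 read in 100% of cases (tolerance 0.01 read), so that the reads could be recovered (7693492 to 9304798 per library).

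The 158698 peaks that reached 1 CPM in 2 or more libraries were tested with limma 3.58.1 (R 4.3.3) with a variance trend on log2(CPM + 0.5), with 4 groups and no covariate in 1 fit (4 residual degrees of freedom), at a Benjamini-Hochberg adjusted p of 0.05. The variance trend carried 98.5 prior degrees of freedom, so each p-value rests mostly on the spread over peaks of like level. Log2 differences understate the change of weak peaks. edgeR 4.0.16 on recovered reads was an alternative, as were other pseudocounts, filters, scalings, bin widths and leaving out each library. The fits were tested on simulated data.

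Gene spans came from RefSeq on GRCh38.p14 and carried no strand that was used, so a gene-end peak may lie at the start or the end of a gene. Peaks lie 0 to 1 kb from that end. No sequence is shown. Genes were named by fixed rules: the 6 largest called differences per direction with no overlap between groups and at least 3 CPM, up to 4 called list members with a log2 difference of at least 1, the 3 genes per direction with most called distal peaks, the 3 peaks per direction furthest from their bin, and 16 genes given in any case, of which 1 is not reported here. Other genes in the text are list members or lie beside these. Members and lists were chosen with earlier results of these data known.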

Additional observations from a re-analysis of the deposited data

Results flagged for a closer look

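At 4 gene ends, 2 resistant lines moved in opposite directions from control, each past the threshold. The difference between such lines is larger than either difference from control and has the same SE. Its call by limma thus follows from how these gene ends were chosen and is no further support. ZNF572 rose in the cisplatin-resistant line (3.57) and fell in the dual-resistant line (-1.25), and the dual-resistant line was lower than the cisplatin-resistant line by -4.81 (SE 0.42, adjusted p = 4.4e-18). EXT1 was higher in the cisplatin-resistant than in the paclitaxel-resistant line by 1.83 (SE 0.22, adjusted p = 7.9e-12). MMP16 was higher in the cisplatin-resistant than in the paclitaxel-resistant line by 3.11 (SE 0.16, adjusted p = 3.3e-32), and the dual-resistant line differed from the cisplatin-resistant line by -1.91 (adjusted p = 3.9e-18). At ZFPM2 the cisplatin-resistant line differed from the paclitaxel-resistant line by -2.60 (SE 0.28, adjusted p = 1.9e-13) and the dual-resistant line from the paclitaxel-resistant line by -2.38 (adjusted p = 1.8e-11). The control libraries are shared by the comparisons with control, but the log2 differences between lines do not use their values. The SEs and p-values of those differences come from the fit of all 8 libraries.

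In 3 bins of 8q the cisplatin-resistant median was at least 0.25 above the genome median and the paclitaxel-resistant median at least 0.25 below it. The paclitaxel-resistant median minus the cisplatin-resistant median was -0.88 at 75 to 80 Mb, -0.91 at 80 to 85 Mb and -0.68 at 135 to 140 Mb. These differences were not tested.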

How the results depend on the processing

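Of 103 called values of named genes and peaks, 81 were called under each alternative run, 22 lost the call in at least 1, and 0 changed direction. With edgeR on recovered reads none of the 103 lost its call. The arm medians have no test, and those given below moved by more than the spread of the 2 libraries. The cause of the changes below was not tested. Values are given in the order cisplatin-resistant, paclitaxel-resistant and dual-resistant unless named.

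With a pseudocount of 0.1 the 8p medians were -0.12, -0.079 and 0.11, and those of 8q in the first 2 lines 0.63 and -0.083. With a pseudocount of 1 the values were 0.47 and -0.044 for 8q in those lines, and -0.044 for 8p in the paclitaxel-resistant line. With a filter of 3 CPM they were -0.11 (8p, cisplatin-resistant) and -0.072 (8q, paclitaxel-resistant). Quantile scaling gave -0.037 (8q, paclitaxel-resistant) and 0.088 (8p, dual-resistant), and median-ratio scaling -0.069 (8q, paclitaxel-resistant). Means in place of medians gave -0.011, -0.024 and 0.15 on 8p, and 0.51 and -0.084 on 8q in the first 2 lines. Gene-end peaks alone, against gene-end peaks of the genome, gave -0.14, -0.045 and 0.066 on 8p and 0.49, -0.030 and -0.011 on 8q, the last below zero instead of above. Distal peaks alone gave 0.56 on 8q in the cisplatin-resistant line.

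After the data were seen, 3 alternatives were added. Without peaks named after control the medians were -0.12, -0.081 and 0.083 on 8p, and 0.52 and -0.074 on 8q in the first 2 lines. Without peaks named after the same line they were -0.12, -0.033 and 0.071 on 8p and 0.25, 0.0064 and 0.070 on 8q, where the second turned from below to above zero. With the median of differences subtracted, 736 peaks of the cisplatin-resistant line and 321 of the dual-resistant line were lower than their bin.

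Bins of 2 Mb with at least 20 peaks had extremes of 1.71 and -0.89, 1.03 and -1.37, and 2.29 and -0.99. Bins of 10 Mb had 0.14 and -0.36 in the paclitaxel-resistant line. Leaving out each library in turn gave 1431 to 1887, 225 to 330 and 293 to 572 members higher, and 458 to 700, 350 to 567 and 103 to 224 lower. The 8p medians ranged from -0.11 to -0.081, -0.062 to -0.042 and 0.091 to 0.11, and the 8q medians from 0.53 to 0.56, -0.064 to -0.052 and 0.011 to 0.048.

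Libraries with the same replicate number did not deviate together (correlations of deviations -0.00059 to 0.0033), so the numbers were not taken as pairs. A replicate block on the number in the labels gave 1879, 326 and 574 members higher and 708, 581 and 225 lower, and changed no call of a named value. Few reads limit weak peaks most: 1 read is worth 0.107 to 0.130 CPM, and 3 reads, the limit that a count of 0 allows, 0.322 to 0.390 CPM.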
